A study of Mus musculus with 13 samples.

Results

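The 10 cell division genes described here were Mki67, Top2a, Ccna2, Ccnb1, Cdk1, Birc5, Aurkb, Plk1, Bub1 and Ube2c, taken by gene name from the 54532 genes of the deposited count table. All 10 passed the filter on low counts, which kept 15811 genes for testing. They were followed across 13 mouse aortas from 2 virus groups and set beside the lymphoid and macrophage transcripts of the same aortas. Every mouse lacked ApoE and received angiotensin II (AngII) from a subcutaneous osmotic pump, at 1000 ng/kg/min for at most 28 days from 10 weeks of age, a treatment that produces abdominal aortic aneurysms. Both groups also received adenovirus through the tail vein, in 5 injections. The 6 Ad-sham mice received empty vector, and the 7 Ad-FAM3A mice received vector in which the broadly active EF1A promoter drove FLAG-tagged mouse Fam3A, so that the promoter did not confine expression to a cell type. The samples were aortic tissue, in which all cells were mixed, each library being 1 labelled aorta, so the p-values below measure the spread between these aortas, and the methods describe mice of either sex without giving the sex of single samples.

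The aortas had 14481179 to 19797407 counted reads each. The smooth muscle list (10 of 10 genes tested) summed to 3372 to 14102 CPM (counts scaled by library size) in Ad-sham and 2592 to 20312 CPM in Ad-FAM3A, so smooth muscle transcripts were abundant in every aorta. The delivered gene itself, Fam3a, did not separate the groups: Ad-sham aortas had 17.9 to 30.3 CPM, a mean of 24.4 ± 4.27 (SD, n = 6), and Ad-FAM3A aortas 18.5 to 29.8 CPM, a mean of 24.0 ± 4.64 (SD, n = 7). Every direction below therefore refers to the labelled virus groups. In the comparison of the virus groups 0 of 15811 genes passed edgeR's quasi-likelihood test at the study's limits, a Benjamini-Hochberg adjusted p of 0.05 and a log2 fold change of size 1. The smallest adjusted p was 0.810, and 934 genes (5.91%) had an unadjusted p under 0.05.

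Dividing cells make the transcripts of these genes in a wave. They are kept low in resting cells by repressor complexes at their promoters, rise from the start of DNA synthesis, peak before and during mitosis, and fall as daughter cells enter G1. Summed over a tissue, their level therefore follows how many cells are in cycle, and in an AngII aorta those can be smooth muscle cells, fibroblasts, macrophages of the lesion or lymphocytes of the adventitia. In bulk tissue, more dividing cells and more of these transcripts per dividing cell cannot be told apart.

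The promoters of such genes are known for CCAAT boxes and for the cell cycle homology region, whose core is TTTGAA. RefSeq promoter sequences (build GRCm38.p6) were matched for 8 of the 10 genes, and Ccna2 and Aurkb were not matched. In the 250 bases before the start, on either strand, CCAAT was present in 7 of 8 genes, TTTGAA in 4 of 8, and both in 4 of 8. Of 27025 mouse promoters of that length, 34.5% held CCAAT, 16.3% held TTTGAA and 5.73% held both. The GC box letters GGCGGG were present in 8 of 8, against 32.6% of all promoters. The 4 stretches below are shown because Mki67, Top2a and Cdk1 held both motifs and Birc5 held neither. Each runs 5′ to 3′ in the direction of transcription, lies upstream of the annotated gene, and has TTTGAA and CCAAT, or their reverse complements TTCAAA and ATTGG, in capitals.
Mki67, chr7:135716380-135716529, minus strand: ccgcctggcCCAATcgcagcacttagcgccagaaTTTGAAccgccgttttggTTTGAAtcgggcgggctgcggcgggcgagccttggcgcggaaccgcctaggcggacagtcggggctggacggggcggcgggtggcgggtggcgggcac
Top2a, chr11:99024190-99024339, minus strand: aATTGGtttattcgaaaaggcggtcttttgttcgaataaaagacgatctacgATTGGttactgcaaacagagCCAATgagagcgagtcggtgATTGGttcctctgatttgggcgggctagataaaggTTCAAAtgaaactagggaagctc
Cdk1, chr10:69352939-69353062, minus strand: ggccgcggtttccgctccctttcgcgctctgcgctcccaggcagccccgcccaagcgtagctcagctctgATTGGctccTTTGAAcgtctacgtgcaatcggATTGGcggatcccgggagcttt
Birc5, chr11:117849087-117849236, plus strand: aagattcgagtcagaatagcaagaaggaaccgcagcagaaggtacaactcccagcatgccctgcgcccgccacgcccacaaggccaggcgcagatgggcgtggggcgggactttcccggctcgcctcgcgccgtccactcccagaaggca
These matches are letters in a window and say nothing of whether a factor was bound. In Mki67 the TTTGAA copies began 116 and 98 bases before the RefSeq start, in Top2a 179 and 23 bases, and in Cdk1 71 and 15 bases; the copies at 179 in Top2a and 15 in Cdk1 lay outside the stretches printed. Top2a held 6 CCAAT boxes in the 250 bases, as did Ube2c, while Plk1 held 1. In the wider list of mitosis and G2 genes described below, 24 promoters were matched, of which 66.7% held CCAAT, 20.8% TTTGAA and 58.3% GGCGGG.

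The genes differed from each other in abundance, and the order of levels is given per kilobase of gene length so that genes can be compared. Averaged over the 13 aortas, Top2a stood at 3.31 CPM per kb, Mki67 at 3.14, Ube2c at 2.83, Ccna2 at 2.002 and Plk1 at 1.46. Ccnb1 followed at 1.21, Birc5 at 1.14, Cdk1 at 1.13, Aurkb at 1.12 and Bub1 at 0.671 CPM per kb. The spread between aortas was wider than most steps in this order: Top2a was 2.38 ± 1.82 CPM per kb (SD, n = 6) in Ad-sham and 4.10 ± 5.46 (SD, n = 7) in Ad-FAM3A, and no neighbours in the order were separated by more than that.

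All 10 genes had their highest level in the same aorta, Ad-FAM3A6, and the order of the other aortas was nearly shared. Across all genes tested, 15.0% were highest in that aorta. The second highest was Ad-sham4 for 9 genes and Ad-FAM3A2 for Cdk1. The lowest was Ad-sham3 for 8 genes and Ad-FAM3A5 for Cdk1 and Birc5. The summed level of the 10 genes was 474.5 CPM in Ad-FAM3A6, then 154 CPM in Ad-sham4, 116 in Ad-FAM3A7, 104 in Ad-FAM3A3, 90.5 in Ad-sham5, 89.3 in Ad-FAM3A2 and 83.7 in Ad-sham1. It was 46.1 CPM in Ad-FAM3A1, 39.8 in Ad-sham6, 35.0 in Ad-sham2, 31.5 in Ad-FAM3A4, 27.7 in Ad-FAM3A5 and 20.3 in Ad-sham3. High and low aortas were thus found in both virus groups, and the plot of each gene by aorta shows a similar order in the 10 panels, though the rank of single aortas differed by gene (Ad-sham1, for example, ranked 4 to 9).

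**Figure D1:**
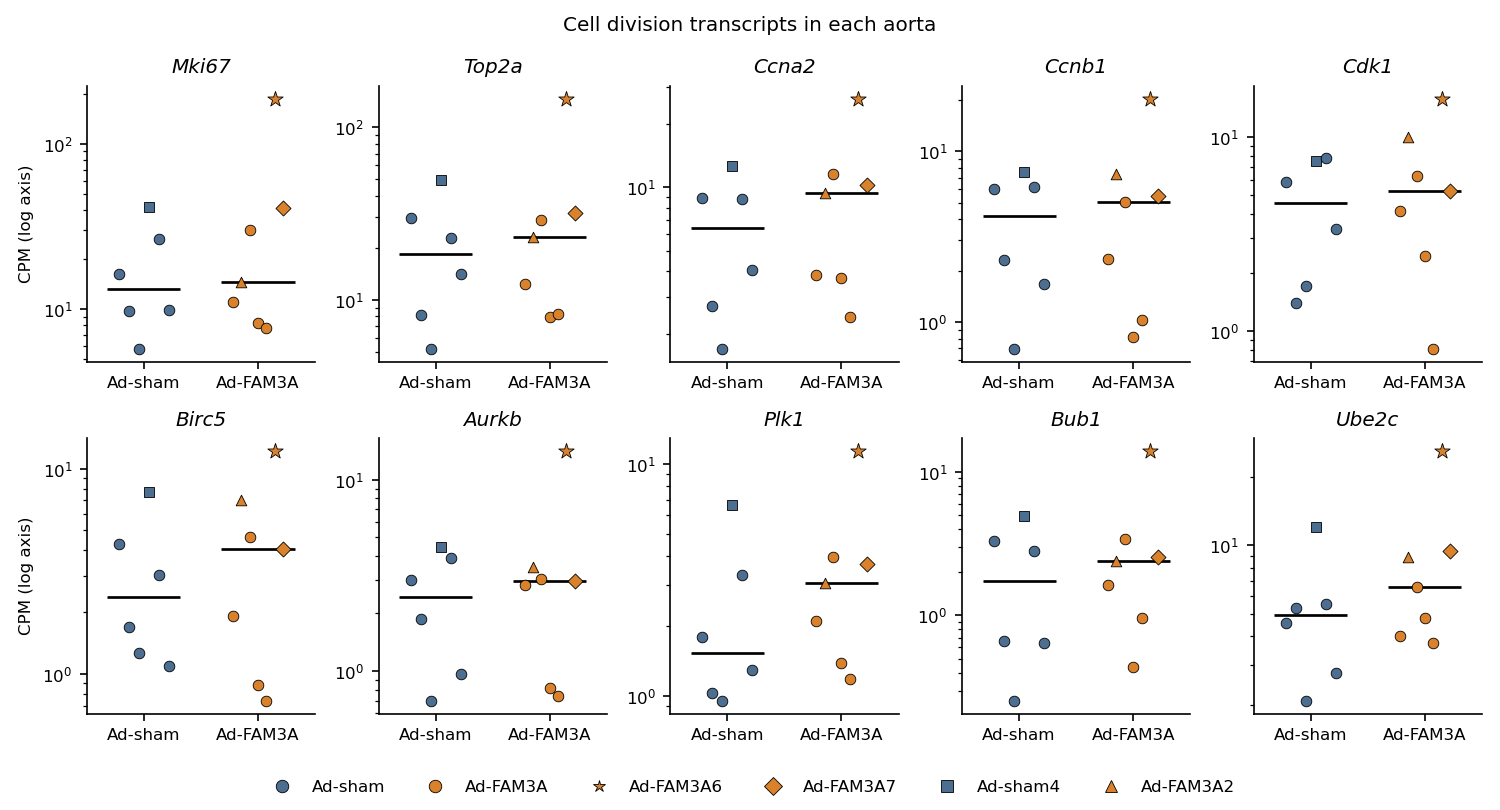
Level of each of the 10 cell division genes (CPM, logarithmic axis) in the 6 Ad-sham and 7 Ad-FAM3A aortas, with 1 symbol per aorta and a line at each group's median. Ad-FAM3A6 (star) was highest in all 10 panels, the groups overlapped in all 10, and Ad-sham4 (square) was second in 9.

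Mki67 (ENSMUSG00000031004, GRCm38 chromosome 7, 135689784 to 135716361, minus strand) encodes Ki-67, the protein that coats mitotic chromosomes and is the standard marker of cycling cells. Its level ran from 5.74 through a median of 13.2 to 41.7 CPM in Ad-sham and from 7.73 through 14.7 to 188 CPM in Ad-FAM3A. The groups overlapped except for Ad-FAM3A6, whose 3077 reads gave a level 4.51 times that of the next aorta and 12.8 times the median of all 13. Top2a (ENSMUSG00000020914, chromosome 11, 98992943 to 99024189, minus strand) encodes topoisomerase II alpha, which untangles chromosomes before they separate. Its level ran from 5.17 through 18.3 to 49.3 CPM in Ad-sham and from 7.97 through 23.1 to 146 CPM in Ad-FAM3A. The groups again overlapped except for Ad-FAM3A6, which was 2.97 times the next aorta.

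The cyclins and their kinase showed a smaller excess in Ad-FAM3A6. Ccna2 (ENSMUSG00000027715, chromosome 3, 36564865 to 36572150, minus strand), cyclin A2, which acts in S phase and G2, ran from 1.70 through 6.42 to 12.6 CPM in Ad-sham and from 2.43 through 9.34 to 26.4 CPM in Ad-FAM3A. Ccnb1 (ENSMUSG00000041431, chromosome 13, 100778650 to 100786570, minus strand), cyclin B1, which brings cells into mitosis, ran from 0.694 through 4.16 to 7.51 CPM and from 0.816 through 5.01 to 20.3 CPM in these groups. Cdk1 (ENSMUSG00000019942, chromosome 10, 69335146 to 69352938, minus strand), the kinase that both cyclins activate, ran from 1.39 through 4.58 to 7.81 CPM and from 0.809 through 5.27 to 15.7 CPM. For each of these genes 4 of the 7 Ad-FAM3A aortas lay above the Ad-sham median. Ad-FAM3A6 exceeded the next aorta 2.09 times for Ccna2, 2.70 times for Ccnb1 and 1.57 times for Cdk1.

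Aurkb, Birc5, Bub1 and Plk1 act at the mitotic spindle and the centromere. Aurkb (ENSMUSG00000020897, chromosome 11, 69045647 to 69051664, plus strand), the kinase of the chromosomal passenger complex, ran from 0.694 through 2.43 to 4.43 CPM in Ad-sham and from 0.736 through 2.96 to 14.2 CPM in Ad-FAM3A. Birc5 (ENSMUSG00000017716, chromosome 11, 117849251 to 117855743, plus strand), or survivin, a subunit of the same complex, ran from 1.09 through 2.37 to 7.70 CPM and from 0.736 through 4.06 to 12.2 CPM. Both genes, like the others, overlapped between the groups (0.0949% of all genes tested did not), and the shared complex did not give equal excess: Ad-FAM3A6 was 3.20 times the next aorta for Aurkb and 1.59 times for Birc5. Bub1 (ENSMUSG00000027379, chromosome 2, 127801122 to 127831865, minus strand), a kinase of the spindle checkpoint, ran from 0.252 through 1.74 to 4.94 CPM and from 0.439 through 2.40 to 14.0 CPM. Plk1 (ENSMUSG00000030867, chromosome 7, 122159439 to 122169873, plus strand), the polo kinase of mitotic entry and exit, ran from 0.947 through 1.54 to 6.61 CPM and from 1.18 through 3.07 to 11.4 CPM. Bub1 spanned the widest range of the 10 genes, from 4 reads in Ad-sham3 to 229 in Ad-FAM3A6, and Plk1 the narrowest on the log2 scale (3.43 log2 units, against 5.23 for Bub1).

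Ube2c (ENSMUSG00000001403, chromosome 2, 164769898 to 164778822, plus strand) encodes the ubiquitin-conjugating enzyme of the anaphase-promoting complex, which destroys cyclin B1 at the end of mitosis. It ran from 2.08 through 4.95 to 11.997 CPM in Ad-sham and from 3.75 through 6.56 to 25.9 CPM in Ad-FAM3A, with 4 of 7 Ad-FAM3A aortas above the Ad-sham median. Several of these genes share bases with genes of the opposite strand, and whether reads were counted by strand is not given in the sources used here. The annotation has Ube2c overlapping Tnnc2 over 1662 bases, Ccna2 overlapping Exosc9 over 863 bases, Plk1 overlapping Gm44985 over 1016 bases and Mki67 overlapping Gm45240 over 674 bases, and a pair of small nucleolar RNA genes lies in Top2a. Tnnc2 had 0 counts in all 13 aortas, whereas Exosc9 stood at 10.5 to 22.2 CPM, above Ccna2 in every aorta except Ad-FAM3A6. If reads were not counted by strand, those of Ccna2 and Exosc9 cannot be told apart where the genes overlap.

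The first comparison asked whether delivery of FAM3A changed the cell division genes. All 10 had a log2 fold change above 0 for Ad-FAM3A over Ad-sham, as did 50.4% of the genes tested, and 0 of 10 passed the test, with 0% of all genes called. The fold changes ran from 0.47 for Cdk1 to 1.23 for Mki67 on the log2 scale, with a median of 0.66 against 0.00 for all genes tested. For Mki67 Ad-sham averaged 18.4 ± 13.6 CPM (SD, n = 6) and Ad-FAM3A 43.0 ± 65.2 CPM (SD, n = 7), a fold change of 1.23 on the log2 scale whose standard error was 0.76. Ube2c had the smallest error, with 5.38 ± 3.53 CPM against 9.06 ± 7.77 CPM and a fold change of 0.75 on the log2 scale whose standard error was 0.50. Adjusted p-values of the 10 genes in edgeR's quasi-likelihood test were 0.812 to 0.878 after Benjamini-Hochberg adjustment. The smallest unadjusted p was 0.130, so 0 of 10 genes were under 0.05. Exact permutation tests over the 1716 splits of the aortas, two-sided on log2 CPM, gave p from 0.232 for Ube2c to 0.748 for Ccnb1, where the smallest p this design allows is 0.000583.

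For the other 8 genes the differences were likewise within the spread between aortas. Top2a had a log2 fold change of 0.78 (standard error 0.70), Bub1 of 0.78 (0.79), Aurkb of 0.70 (0.65) and Plk1 of 0.61 (0.59). Ccnb1 stood at 0.57 (0.71), Ccna2 at 0.57 (0.57), Birc5 at 0.50 (0.65) and Cdk1 at 0.47 (0.58). Because 1 aorta held the highest value of every gene, the direction was recomputed without it. Without Ad-FAM3A6, 6 of 10 genes stayed above 0, where 48.7% of all genes did, and the median log2 fold change was 0.028. Top2a then stood at -0.20, Bub1 at -0.15, Ccnb1 at -0.14 and Aurkb at -0.091. Without Ad-FAM3A6 and Ad-FAM3A7, the aortas rich in B cell transcripts, 2 of 10 genes (Cdk1 and Ube2c) were above 0, where 48.0% of all genes were, and Mki67 stood at -0.36. A fit added after the data were seen left out those and Ad-sham4, all the aortas rich in B cell or T cell transcripts. In it 9 of 10 genes (all but Ccnb1, at -0.031) were above 0, where 48.3% of all genes were, with a median of 0.20. Leaving out Ad-sham4 alone raised the median to 1.07. The plot of fold changes shows the values without Ad-FAM3A6 and without Ad-FAM3A6 and Ad-FAM3A7, and in those fits Mki67 moved farther than any other of the 10 genes.

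**Figure D2:**
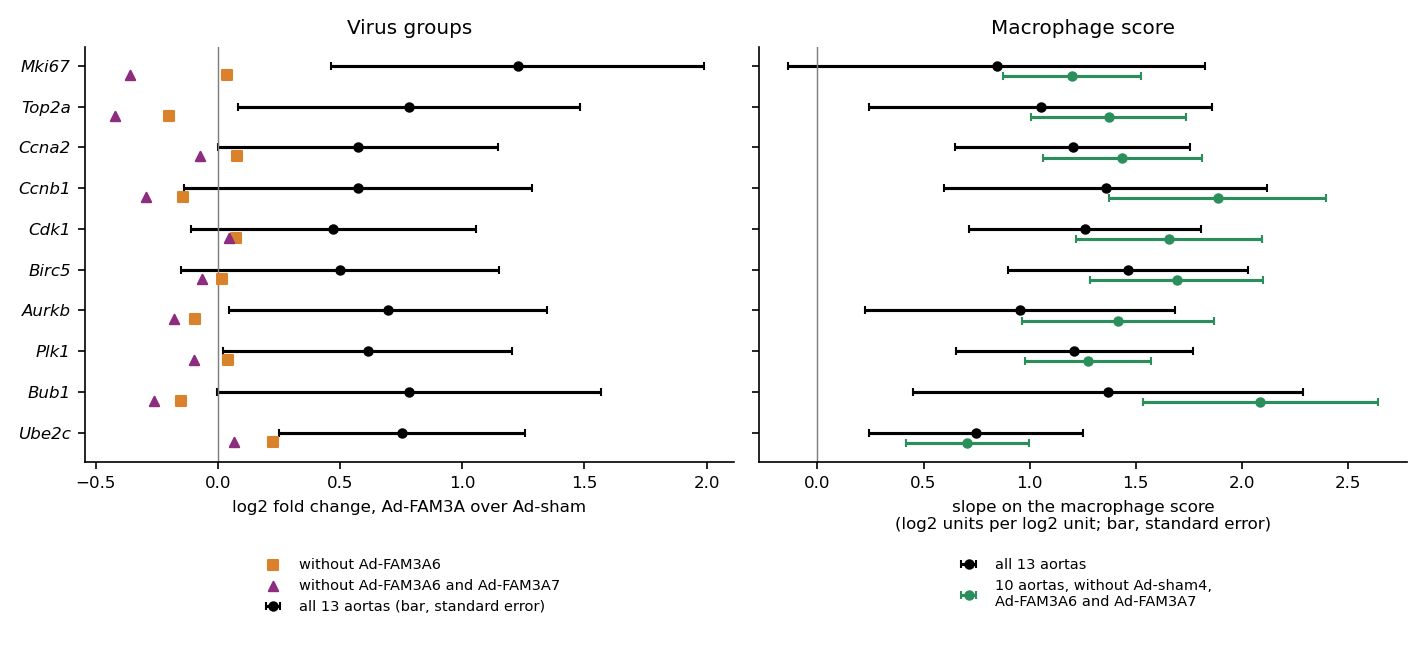
Left, log2 fold change of each gene for Ad-FAM3A over Ad-sham in all 13 aortas (circle, bar of 1 standard error), without Ad-FAM3A6 (square) and without Ad-FAM3A6 and Ad-FAM3A7 (triangle). Right, slope of each gene on the macrophage score, in log2 units per log2 unit, in all 13 aortas and in the 10 without Ad-sham4, Ad-FAM3A6 and Ad-FAM3A7: all 10 slopes lay above 0 in both sets, and the error bars were shorter in the 10 aortas.

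The wider cell cycle was examined in 4 lists: 30 genes of mitosis and G2, 30 of DNA replication, 12 regulators of G1 and 16 cell cycle inhibitors. In the mitosis and G2 list 29 of 29 tested genes had a log2 fold change above 0, as did 50.4% of all genes, with a median of 0.45, and 0 were called. Its 3 genes of smallest p were Mybl2, a transcription factor of late cell cycle genes (1.29), Kif15, a spindle kinesin (1.17), and Nusap1, a spindle protein (0.88). In the DNA replication list 27 of 29 tested genes were above 0, with a median of 0.26. Ccne2, cyclin E2, which starts S phase, stood at 0.77 there, Mcm6 at 0.45 and Mcm5, like it a subunit of the replicative helicase, at 0.87. Of these 2 lists, 27 of 29 and 28 of 29 tested genes were highest in Ad-FAM3A6, as the 10 genes were. Without that aorta, in a refit added after the data were seen, 10 of 29 mitosis and G2 genes (median -0.057) and 8 of 29 DNA replication genes (median -0.084) were above 0, where 48.7% of all genes were. In the G1 list 9 of 12 genes were above 0 (median 0.16), among them Skp2 (0.75), Cks1b (0.49) and Ccnd2 (0.35). In the inhibitor list 9 of 15 tested genes were above 0 (median 0.05), with Gadd45b at 0.65, Btg1 at 0.27 and Btg2 at -0.61. Without Ad-FAM3A6 these counts were 8 of 12 (median 0.086) and 7 of 15 (median -0.027). No gene of these 4 lists passed the test, against the background of 0%.

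Over all 13 aortas, likeness to the 10 genes fell off from mitosis toward G1. The likeness was Pearson's r, over the 13 aortas, between a gene's log2 CPM and the mean standardized log2 CPM of the 10 genes. It is a description, since all genes share the libraries and their depth. Ad-FAM3A6 had a mean standardized level of 2.02, against 0.962 in the next aorta, Ad-sham4. As r was not taken without Ad-FAM3A6, how far the order of the lists rests on that aorta was not tested. The median over all genes tested was -0.022. The mitosis and G2 list had a median of 0.92, with 24 of 29 genes over 0.8, and the DNA replication list 0.81, with 17 of 29. The G1 regulators had a median of 0.41, with 0 of 12 over 0.8, and the inhibitors 0.13, with 1 of 15. Among genes on none of these lists the 10 most alike were Brca1 (0.97), Ect2 (0.97), Ncaph (0.96), Cep55 (0.96), Spag5 (0.96), Rad51ap1 (0.96), Haspin (0.96), Lcp1 (0.96), Dlgap5 (0.95) and Ckap2l (0.95). Lcp1 encodes L-plastin, an actin-bundling protein of white blood cells, and ran from 41.0 to 570 CPM, far above the others. All 10 were highest in Ad-FAM3A6, and 93 genes (0.588%) had an r over 0.9.

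**Figure D3:**
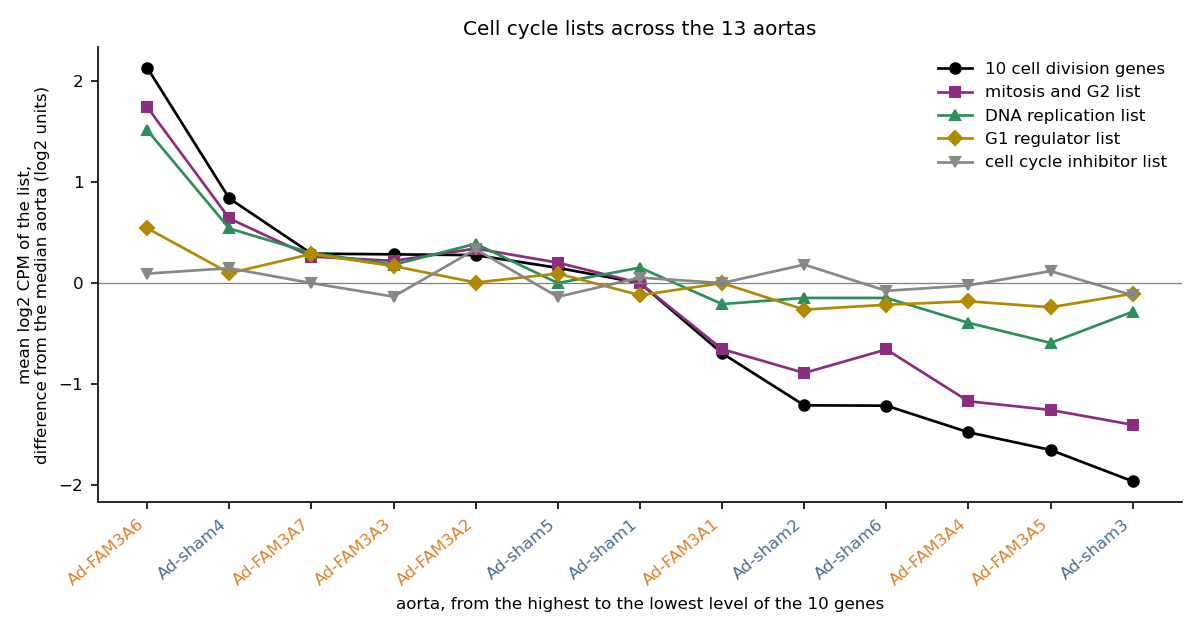
Mean log2 CPM of the 10 cell division genes and of the 4 wider lists in each aorta, as the difference from the median aorta in log2 units, with aortas ordered by the level of the 10 genes. The mitosis and G2 and DNA replication lines fell along with the 10 genes from Ad-FAM3A6 to the right. The G1 line fell over a smaller range, its score running from 4.61 log2 CPM in Ad-FAM3A6 to 3.81 in Ad-sham2. The inhibitor line stayed nearly flat.

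The second comparison related the cell division genes to lymphoid content, scored as the mean log2 CPM of the tested genes of each cell type list. The B cell score was 6.45 in Ad-FAM3A6 and 5.30 in Ad-FAM3A7 and at most 2.78 in the other 11 aortas. Ms4a1, which encodes CD20, stood at 194 and 77.7 CPM there against 1.62 to 13.1 CPM elsewhere, and Cd79b, a part of the B cell receptor, at 146 and 50.0 CPM. The list's most abundant gene, Ebf1, was as high in the other aortas, at up to 130 CPM, and did not follow the score. The T cell score reached 5.51 in Ad-FAM3A6, with Ad-sham4 at 3.58 and Ad-FAM3A7 at 2.90, and at most 1.57 elsewhere. Cd3e, a chain of the T cell receptor complex, stood at 37.8, 9.17 and 5.16 CPM in these 3 aortas and at 0.76 to 1.98 CPM in the rest. These 3 lymphoid-rich aortas had the highest mean levels of the 10 cell division genes (4.73 log2 CPM in Ad-FAM3A6, with Ad-sham4 at 3.44 and Ad-FAM3A7 at 2.89), although Ad-FAM3A3 reached 2.89 with a B cell score of 0.95 and a T cell score of 0.92, and Ad-FAM3A2 2.88 with a B cell score of 1.89 and the T cell score sixth of 13.

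The lymphoid transcripts of these aortas were not of one kind. The T cell precursor gene Rag1, a recombinase of immature lymphocytes, had 1428 reads in Ad-sham4 (91.6 CPM) and 0 in Ad-FAM3A6, an upper limit of 0.183 CPM there. Dntt, the terminal transferase of the same cells and named here after its values were seen, had 587 reads in Ad-sham4 and 10 in Ad-FAM3A6. The thymocyte score nevertheless was 5.39 in Ad-FAM3A6 and 4.91 in Ad-sham4, as only 7 of its 12 genes were tested and several of those, such as Tcf7 at 159 and 103 CPM, are also made by mature T cells. Ad-FAM3A6 also had the lowest smooth muscle score of the 13 aortas, 6.90 against 7.20 to 9.75. The part of these cell types in the level of the cell division genes was not tested.

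Since these aortas stood apart from the rest by gaps of over 1 log2 unit, no correlation with the lymphoid scores was taken across all 13. Within the aortas that remained, permutation tests were made of 10 relations per score. With B cells (11 aortas) the median r was -0.13 and the median Spearman's rho -0.14, with r from -0.23 to 0.04 and 0 of 10 permutation p-values under 0.05. With T cells (10 aortas) the median r was 0.46 and rho 0.53, with 1 of 10 under 0.05 (Cdk1, permutation p = 0.0281), and 1.81% of all genes tested had an r above that of Cdk1. With thymocytes (11 aortas, Ad-FAM3A7 among them) they were 0.54 and 0.55, with 2 of 10 (Mki67, permutation p = 0.00843, and Top2a, 0.0181), and 4.46% of all genes had an r above that of Top2a. Leaving out the 2 aortas farthest from the median score changed the median r to 0.27 for B cells, 0.40 for T cells and 0.40 for thymocytes, and 0 of 10 relations with each were then under 0.05.

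The macrophage list behaved differently. No aorta stood apart in its score, which ran from 5.20 in Ad-FAM3A4 to 6.83 in Ad-sham4, with Ad-FAM3A2 second at 6.72, Ad-FAM3A3 next at 6.52 and Ad-FAM3A6 eighth at 5.82. Lyz2, lysozyme, ran from 356 to 2837 CPM, Gpnmb, a gene of lipid-laden macrophages, from 23.8 to 660 CPM, Ctss, a lysosomal protease, from 47.6 to 447 CPM, and Adgre1, which encodes F4/80, from 18.8 to 71.1 CPM. Across all 13 aortas r of the 10 genes with the score ran from 0.50 for Mki67 to 0.71 for Birc5, with a median of 0.66, and rho from 0.64 to 0.75 with a median of 0.74. Two-sided permutation p-values were 0.00792 to 0.0777 for r, with 8 of 10 under 0.05, and 0.00437 to 0.0207 for rho, with 10 of 10. Of all genes tested, 6.01% had an r above that of Mki67, the lowest of the 10, and 3.81% an r above the lowest of those 8. For rho, 3.45% of all genes lay above the lowest of the 10. Without Ad-sham4 and Ad-FAM3A2, the 2 aortas farthest from the median, the median r was 0.58 and 4 of 10 permutation p-values were under 0.05, while rho stayed under 0.05 for 9 of 10. Of all genes, 4.78% had an r above the lowest of those 4 and 3.67% a rho above the lowest of those 9. The r of the 4 genes that were no longer under 0.05 at 11 aortas went from 0.59 to 0.57 for Top2a, from 0.57 to 0.54 for Aurkb, from 0.65 to 0.58 for Cdk1 and from 0.71 to 0.59 for Birc5, and that of Mki67 from 0.50 to 0.55.

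**Figure D4:**
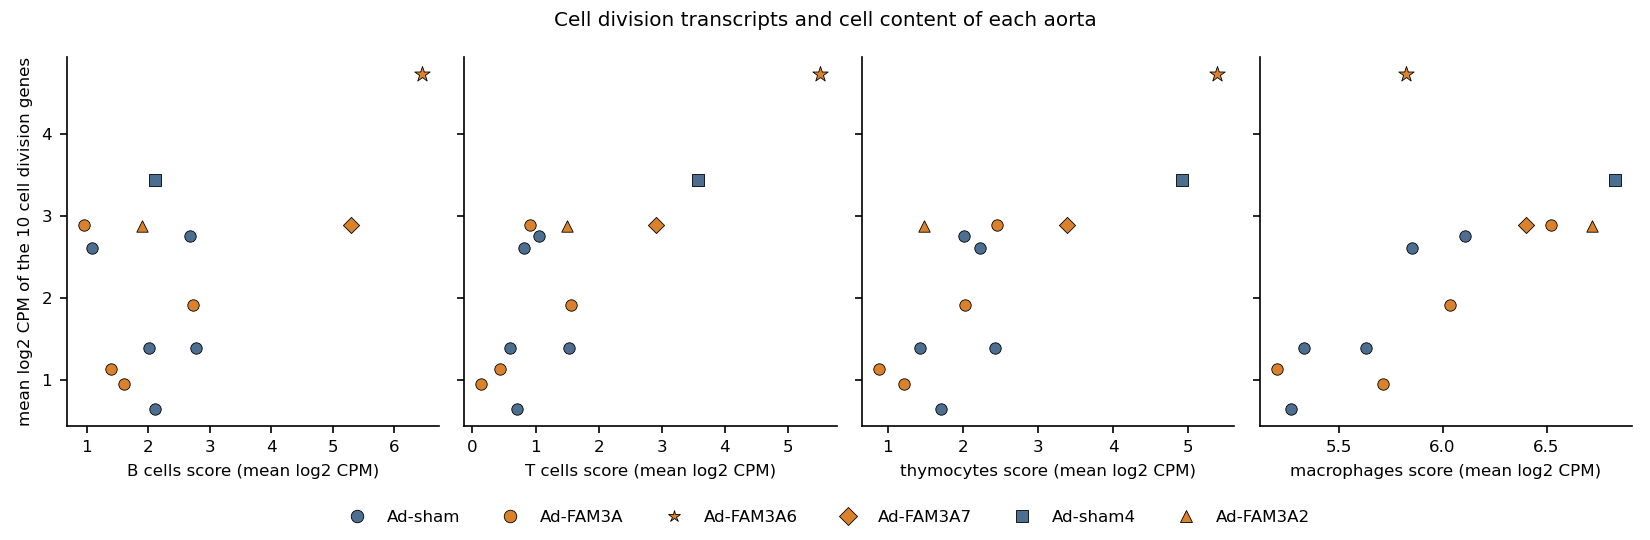
Mean log2 CPM of the 10 cell division genes (vertical axis) against the B cell, T cell, thymocyte and macrophage scores (mean log2 CPM of each list) of the 13 aortas. Ad-FAM3A6 lay at the far right of the 3 lymphoid panels, and in the macrophage panel it lay above a rising band formed by the other 12 aortas.

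The relation was also taken within the virus groups and without the lymphoid-rich aortas. In the 6 Ad-sham aortas the median r was 0.88, with exact permutation p from 0.00139 to 0.0458 and 10 of 10 under 0.05, and 4.90% of all genes had an r above the lowest of the 10. In the 7 Ad-FAM3A aortas it was 0.41, with exact permutation p from 0.140 to 0.641 and 0 of 10 under 0.05, and 35.5% of all genes had an r above the lowest. The difference between the groups was not tested. A further set, the 10 aortas without Ad-sham4, Ad-FAM3A6 and Ad-FAM3A7, was added after the data were seen. There the median r was 0.80 (range 0.68 to 0.89) and the median rho 0.81. Permutation p ran from 0.00067 to 0.0283 for r, and 3.67% of all genes had an r above the lowest of the 10. For rho, permutation p was under 0.05 for 9 of 10, and 1.59% of all genes had a rho above the lowest of those 9. Over the same 10 aortas the other lists gave a median r of 0.74 for germinal centre B cells (8 of 10 permutation p-values under 0.05, with 4.10% of all genes above the lowest r of those 8), of which 5 of 8 genes were tested and Bcl6 and Fas, the most abundant of them, are used by many cells. The median r was 0.49 for thymocytes, 0.46 for T cells, 0.36 for sympathetic neurons, 0.22 for plasma cells, 0.18 for fibroblasts, 0.00 for cardiac muscle, -0.08 for adipocytes, -0.14 for endothelium, -0.21 for B cells, -0.27 for erythroid cells, -0.31 for smooth muscle and -0.47 for neutrophils.

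To adjust over all genes, the macrophage score was entered as a continuous term in the edgeR fit, a test added after the data were seen. Across 13 aortas the slopes of the 10 genes were 0.75 to 1.46, with a median of 1.21 log2 units per log2 unit of score against 0.00 for all genes. Of the 10, 0 passed an adjusted p of 0.05, where 0.354% of all genes passed with a positive slope, and 4 had an unadjusted p under 0.05, where 3.55% of all genes did. In the 10 aortas without the lymphoid-rich ones the median slope was 1.43, with 0 of 10 passing (0.449% of all genes) and 10 of 10 at an unadjusted p under 0.05 (4.47% of all genes). Bub1 had the steepest slope there, 2.09 with a standard error of 0.55, and Ube2c the shallowest, 0.71 with a standard error of 0.29. The adjusted p-values in edgeR's quasi-likelihood test were 0.147 to 0.700 in those aortas. Without Ad-FAM3A6 alone 6 of 10 genes passed (1.27% of all genes): Plk1 at an adjusted p of 0.00628, Top2a at 0.0150, Birc5 at 0.0183, Mki67 at 0.0203, Ccna2 at 0.0299 and Bub1 at 0.0318 by the same edgeR test. The call of these 6 genes thus depended on which aortas were in the fit. It was absent with Ad-FAM3A6 included, and absent again when Ad-sham4 and Ad-FAM3A7 were left out along with Ad-FAM3A6.

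With the virus group as a further term the median slope was 1.19 and 0 of 10 genes passed, where 0.259% of all genes did. With the B cell and T cell scores as further terms it was 0.82, and 0 of 10 passed, where 0% of all genes did, while 3 of 10 had an unadjusted p under 0.05, where 3.50% of all genes did with a positive slope. A score of Trem2, Gpnmb, Cd68 and Ctss alone, genes of phagocytes and foam cells, gave a median slope of 0.70 with 0 of 10 passing (0.455% of all genes). The other 12 genes of the list gave 1.23 with 0 of 10 passing (0% of all genes). Unadjusted p in these edgeR fits was under 0.05 for 4 of 10 genes with the first score, where 4.12% of all genes had this with a positive slope. With the score of the other 12 genes it was under 0.05 for 1 of 10, where 2.9% of all genes did. Each slope is per unit of its own score, so the sizes of these medians do not rank the scores. The wider lists had median slopes in 13 aortas of 0.98 for mitosis and G2, 0.36 for DNA replication, 0.21 for G1 regulators and 0.00 for inhibitors, with 0 called.

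Mki67 and Cdk1 did not keep one ratio across aortas. Mki67 reads per Cdk1 read, which need no scaling by depth, numbered 11.97 in Ad-FAM3A6 (95% exact binomial interval 10.5 to 13.7), 7.77 in Ad-FAM3A7 (6.24 to 9.77) and 5.56 in Ad-sham4 (4.56 to 6.82). In Ad-FAM3A2, the aorta with the highest Lyz2 and Gpnmb, the ratio was 1.47 (1.20 to 1.80), the lowest of the 13, and its interval did not meet that of any other aorta. Ad-FAM3A2 and Ad-FAM3A3 had almost the same mean level of the 10 genes, 2.88 and 2.89 log2 CPM, yet the ratio in Ad-FAM3A3 was 4.82 (3.83 to 6.13). The low aortas Ad-FAM3A5, at 9.55 (5.12 to 19.7), and Ad-sham2, at 7.04 (4.53 to 11.4), had few Cdk1 reads and wide intervals. Against Ccnb1 the order differed in part: Mki67 reads per Ccnb1 read were most in Ad-FAM3A4, at 10.1, then Ad-FAM3A6, at 9.27, and again fewest in Ad-FAM3A2, at 2.01, whereas Ad-FAM3A4 had 3.36 per Cdk1 read. The Ad-FAM3A4 value rested on 13 Ccnb1 reads, and no intervals were taken for the Ccnb1 ratios, so their order is uncertain. The intervals of the Cdk1 ratios cover counting error only.

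**Figure D5:**
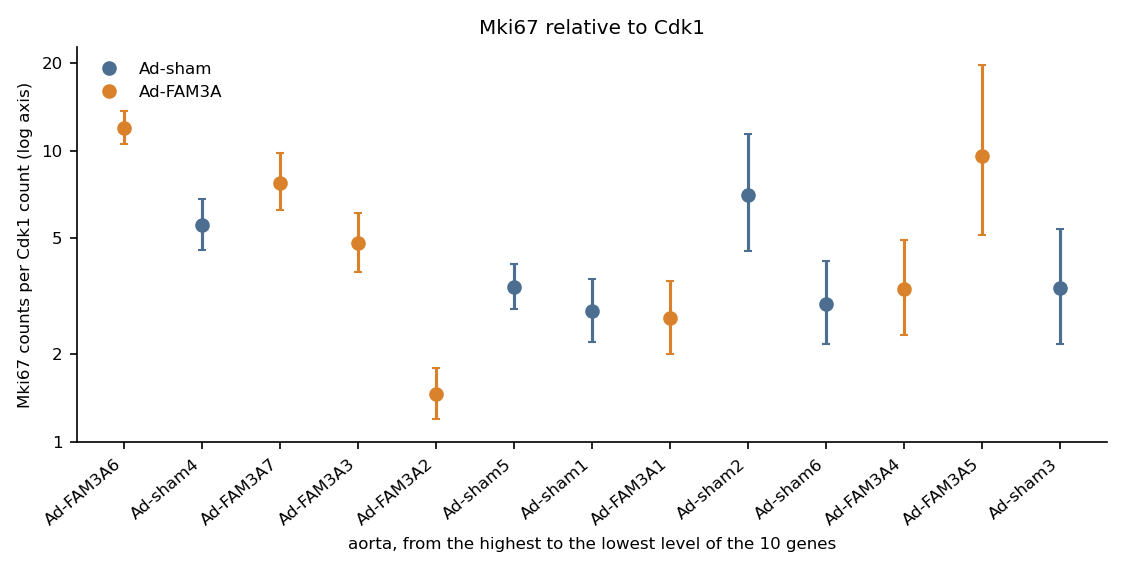
Mki67 reads per Cdk1 read in each aorta (logarithmic axis), ordered by the level of the 10 genes, with 95% exact binomial intervals. The ratio was 11.97 in Ad-FAM3A6 and 1.47 in Ad-FAM3A2, and it did not follow the order of the aortas.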

How the data were processed

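The submitters' labels give aortas of ApoE knockout mice in 2 virus groups. The authors deposited a table of read counts per gene, made by aligning reads to GRCm38 with Hisat2 and counting with FeatureCounts. The annotation release, the strand setting and the treatment of multiply mapped reads are not given in the sources used here. The labels name an RNeasy extraction and a SMARTER library kit, whereas the study's methods name TRIzol and a New England Biolabs kit. A table of the authors' group means in FPKM was not used, and 0 columns of per-sample counts were left unmapped.

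Counts were filtered with filterByExpr, scaled by TMM and tested in R 4.3.3 with edgeR 4.0.16 (glmQLFit, glmQLFTest), with Benjamini-Hochberg adjustment over 15811 genes. Levels are CPM scaled by TMM, and scores and correlations use log2 CPM with a prior count of 2. Standard errors were derived from the log2 fold change and the F statistic (size over square root). DESeq2 1.42.0 and limma 3.58.1 served the alternatives and tool functions. In the smallest library 3 counts amount to 0.212 CPM. Permutation tests used 100000 resamples, or all arrangements for groups under 10. The p-values of the 40 correlations with cell scores are unadjusted, although their adjustment had been planned, and adjustment over all genes came from the edgeR slopes. The edgeR fits of the virus group and of the macrophage score were tested on simulated data. The other computations across genes were not.

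The genes named were the 10 members, the 3 genes of smallest p in each wider cell cycle list, the most abundant and first genes of each cell type list discussed, and the 10 genes most like the members. The members and lists were chosen with earlier results of these data known. Sequences came from RefSeq tables. Alternatives covered scaling, filtering, the test, single aortas, the replicate block, and the score.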

Additional observations from a re-analysis of the deposited data

Results flagged for a closer look

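In 58 groups of values, those of the 10 genes and of the marker and cell cycle list scores in each virus group, the highest or lowest aorta was compared with the range of its own group by Dixon's criterion. In 4 of them an aorta lay far from the others, where chance gives about 1 in 20, or 2.9 of 58. In Ad-FAM3A6 the germinal centre B cell score was 4.911 log2 CPM, against 3.38 to 4.01 in the other 6 Ad-FAM3A aortas. That aorta also held the highest value of all 10 cell division genes. In the same aorta the cardiac muscle score was 5.03 log2 CPM, against 1.73 to 2.79 in the rest of its group, while Ad-sham1 had 5.56 and Ad-sham3 4.04. In Ad-sham4, the aorta with the second highest level of 9 of the 10 genes, the T cell score was 3.577 log2 CPM, against 0.60 to 1.54 in the other 5 Ad-sham aortas. The thymocyte score there was 4.914 log2 CPM, against 1.43 to 2.42. None of the 10 cell division genes themselves met the criterion in either group on the log2 scale. The part of these cell types in the cell division transcripts was not tested.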

How the results depend on the processing

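In none of 219 refits of a single gene between the virus groups did one of the 10 genes pass the test, and the lowest adjusted p was 0.574 in edgeR's quasi-likelihood test; 13 of them turned the direction. Those were, without Ad-FAM3A6, Top2a at -0.20, Ccnb1 at -0.14, Aurkb at -0.091 and Bub1 at -0.15; without Ad-FAM3A6 and Ad-FAM3A7, Mki67 at -0.36, Top2a at -0.42, Ccna2 at -0.073, Ccnb1 at -0.29, Birc5 at -0.063, Aurkb at -0.18, Plk1 at -0.095 and Bub1 at -0.26, leaving 2 genes above 0; and without those and Ad-sham4, Ccnb1 at -0.031. Leaving out single aortas gave 6 to 10 genes above 0, and log2 fold changes of -0.20 to 1.21 for Top2a, -0.14 to 0.84 for Ccnb1, -0.091 to 0.94 for Aurkb and -0.15 to 1.23 for Bub1. The rest stayed above 0, at 0.037 to 1.65 for Mki67, 0.081 to 0.88 for Ccna2 and 0.076 to 0.72 for Cdk1. Birc5 ran from 0.018 to 0.98, Plk1 from 0.044 to 1.18 and Ube2c from 0.23 to 1.16. Each lowest value came without Ad-FAM3A6. With limma-voom 10 genes stayed above 0, but the median was 0.46 against 0.66, and 6 values moved by over 1.5 times: Mki67 to 0.57, Top2a to 0.44, Ccnb1 to 0.26, Cdk1 to 0.31, Birc5 to 0.28 and Aurkb to 0.36. DESeq2's test, run on 30782 genes with no filter and with its own size factors, called 10 genes between the groups (9 higher, 1 lower). EdgeR called 0 in its main fit of 15811 filtered genes. It also called 0 with no filter on the 30782 genes, and 0 with DESeq2 size factors on the filtered genes.

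The median correlation with the macrophage score was 0.58 without the 2 farthest aortas, 0.74 as Spearman's rho, 0.47 on linear CPM, 0.88 in Ad-sham, 0.41 in Ad-FAM3A, 0.80 without the 3 lymphoid-rich aortas, and 0.59 to 0.85 without single aortas. With B cells it was 0.27 without the 2 farthest aortas, -0.40 on linear CPM and -0.23 to 0.034 without single aortas. With thymocytes it was 0.40, 0.34 and 0.45 to 0.68, and 0.67 in Ad-FAM3A. The median slope on the macrophage score was 0.82 with the lymphoid scores as terms and 0.89 to 1.49 without single aortas. Without single aortas 0 to 6 genes were called, the 6 without Ad-FAM3A6. With Trem2, Gpnmb, Cd68 and Ctss as the score, the median slope was 0.70 per unit of that score. Except where an aorta was left out, the cause was not tested.

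Whether replicate numbers pair the aortas was not settled. Deviations of aortas with the same number correlated at -0.33 to 0.45, and aortas with unlike numbers were not compared. With the replicate block, and without Ad-FAM3A7, which has no partner, 0 genes were called and 596 had an unadjusted p under 0.05. All 10 genes stayed above 0, with a median log2 fold change of 0.34 against 0.73 in the fit of the same aortas with no block, and Mki67 stood at 0.28 against 1.31.

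Depth limited Bub1 most, with 4 reads in its lowest aorta, where each of the other 9 genes had at least 10.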

Other observations

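Outside the 10 genes, Skp2, which encodes the ubiquitin ligase subunit that targets the inhibitor p27 at the start of the cycle, was the gene of the wider cell cycle lists with the smallest p between the virus groups. Its level was 2.46 to 4.36 CPM in Ad-sham, with a median of 3.69, and 4.71 to 7.54 CPM in Ad-FAM3A, with a median of 6.48. The groups did not overlap, as was the case for 15 of 15811 genes tested (0.0949%). It was higher by 0.75 on the log2 scale (standard error 0.20), and by 0.66 to 0.82 when single aortas were left out, Ad-FAM3A6 included. Its adjusted p in edgeR's quasi-likelihood test was 0.810, and the two-sided exact permutation p was 0.00117 before any adjustment for the 15811 genes. Skp2 overlaps Lmbrd2 on the opposite strand over 14876 bases, and Lmbrd2 stood at 27.2 to 66.8 CPM in Ad-sham and 39.1 to 85.7 CPM in Ad-FAM3A. If reads were not counted by strand, those of the pair cannot be told apart where the genes overlap.

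Cyclin E2 (Ccne2), which binds Cdk2 in G1, was above the Ad-sham median of 2.72 CPM in 7 of 7 Ad-FAM3A aortas, with a log2 fold change of 0.77 (standard error 0.29) and 0.63 without Ad-FAM3A6. It overlaps Ints8 on the opposite strand over 5622 bases, and Ints8 ran from 23.4 to 40.5 CPM in Ad-sham and from 33.0 to 49.8 CPM in Ad-FAM3A. Mybl2, by contrast, fell from a log2 fold change of 1.29 to 0.49 without Ad-FAM3A6. The stress gene Gadd45b, an inhibitor of the G2 transition, was above the Ad-sham median of 13.8 CPM in 7 of 7 Ad-FAM3A aortas, with a log2 fold change of 0.65 (standard error 0.26). Cks1b, which works together with Skp2, stood at 0.49 (standard error 0.22). None of these genes passed the adjusted test, where all had an adjusted p of 0.810 in edgeR.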
